A study of Mus musculus with 18 samples.

Results

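Of 26180 RefSeq mouse genes, 272 (1.04%) had an H3K9me2 summit near a transcript start in both fasted livers and in neither refed liver. They were chosen by the ChIP-seq summit lists themselves: a gene was taken when each list of the 2 WT fasted livers held a summit within 1000 bp of one of its annotated starts and neither list of the 2 WT refed livers did. Their number, scores and refed distances are therefore a description and carry no test. ATAC-seq and RNA-seq were not used in the choice.

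All samples were liver of C57bl/6j mice on chow, at 12 weeks of age by the methods, while the labels give 6 to 8 weeks of chow. The fasted (F) and refed (R) groups of H3K9me2 ChIP-seq were mice labelled wildtype, with 2 livers and 2 input samples in each. ATAC-seq covered 3 groups of 2 livers each, of which JMJD1C-LKO was refed and the other two were fasted and refed WT. RNA-seq had 2 libraries of pooled RNA from refed WT mice and 2 from refed JMJD1C-LKO mice, and no RNA of fasted liver was analysed here. JMJD1C-LKO mice carry floxed Jmjd1c and Albumin-Cre, which deletes in cells that use the albumin promoter and so leaves the gene in the other cells of the liver, and the WT mice are littermates. Fasting was overnight and refeeding was with a high carbohydrate diet, for 6 h in the labels and for 8 to 16 h in the methods.

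Histone H3 dimethylated at lysine 9 (H3K9me2) is laid down mainly by the methyltransferases G9a and GLP and is removed by demethylases of the KDM3 family, to which JMJD1C belongs, and of other families. The mark is best known from silent chromatin in broad domains. Liver after an overnight fast releases glucose, oxidises fatty acids and makes ketone bodies, and on refeeding with carbohydrate it turns to storing glycogen and making lipid. Genes of the fasted state are switched within hours by glucagon, glucocorticoids, insulin and fatty acids.

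The 4 ChIP-seq lists were far from equal. Fasted 1 held 7690 summits, fasted 2 held 13456 and refed 2 held 9929, but refed 1 held 1297, and these touched the promoters of only 61 genes. Refed 1 stands apart from the other 3 livers. Of 7621 genes with a promoter summit in both fasted livers, 9 had one in refed 1 and 7348 in refed 2. The absence in refed liver thus rested on refed 2 alone, and without refed 1 the rule gave 273 genes in place of 272. The peak names in the files carry one shared number in fasted 1 and refed 2, which names no stated batch, and taking these 2 livers alone gave 282 genes. The files hold summits and scores without read counts, so depth is unknown.

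The sequence beneath the mark is shown first for the pair of fasted summits. The stretches below come from 4 genes whose fasted summits lay close together inside an intron: Hnf4a as the strongest member, Cdkn1a as one of the strongest with no refed summit nearby, Alb as the most highly expressed, and Gjb1 as a liver gene on the X chromosome. Capitals run from one fasted summit to the other, with 30 bases added on each side, and the strand is that of the gene (RefSeq, GRCm38.p6).
Hnf4a, chr2:163547431-163547514, plus strand: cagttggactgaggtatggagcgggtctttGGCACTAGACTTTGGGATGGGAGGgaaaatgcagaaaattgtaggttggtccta
Cdkn1a, chr17:29094053-29094168, plus strand: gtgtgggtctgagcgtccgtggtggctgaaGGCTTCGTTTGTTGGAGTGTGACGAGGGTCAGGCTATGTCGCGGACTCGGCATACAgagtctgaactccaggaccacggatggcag
Alb, chr5:90461404-90461586, plus strand: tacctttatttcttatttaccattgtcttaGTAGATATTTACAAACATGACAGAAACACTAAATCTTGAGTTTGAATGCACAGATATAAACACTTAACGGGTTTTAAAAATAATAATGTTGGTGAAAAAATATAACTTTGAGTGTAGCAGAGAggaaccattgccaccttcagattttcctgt
Gjb1, chrX:101377531-101377636, plus strand: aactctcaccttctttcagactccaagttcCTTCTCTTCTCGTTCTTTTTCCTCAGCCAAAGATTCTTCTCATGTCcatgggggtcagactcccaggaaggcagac

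Each pair lay downstream of a start. The fasted 1 and fasted 2 summits stood 329 and 306 bp from it at Hnf4a, 369 and 314 bp at Cdkn1a, 564 and 686 bp at Alb and 371 and 326 bp at Gjb1. Hnf4a spans chr2:163506857-163572907 and has several starts, and the summits lay in an intron downstream of an internal start.

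For 4 members whose transcripts changed in JMJD1C-LKO liver, the 200 bases upstream of the start nearest the mark are given next. None overlaps an annotated exon. Capitals mark matches, on either strand, to 7 short motifs searched in all promoters. The general promoter motifs were TATAAA, which binds the TATA-binding protein, then CCAAT, which binds NF-Y, and the GC box GGGCGG, which binds Sp1. The others were the E box CACGTG, the cAMP response element TGACGTCA, the forkhead motif TGTTTAC and the HNF4 motif CAAAGTCCA. The E box and the cAMP response element read the same on both strands, and matches of different motifs may overlap by a base or more.
Fgf21, chr7:45615491-45615690, minus strand: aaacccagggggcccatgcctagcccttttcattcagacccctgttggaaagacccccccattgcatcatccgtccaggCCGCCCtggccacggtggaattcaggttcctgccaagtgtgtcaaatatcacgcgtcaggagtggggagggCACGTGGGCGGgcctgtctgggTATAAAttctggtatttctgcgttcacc
Tat, chr8:109990236-109990435, plus strand: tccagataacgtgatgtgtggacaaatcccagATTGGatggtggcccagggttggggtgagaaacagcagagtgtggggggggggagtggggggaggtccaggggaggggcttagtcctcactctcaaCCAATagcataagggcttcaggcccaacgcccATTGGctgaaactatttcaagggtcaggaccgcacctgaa
Igfbp1, chr11:7197587-7197786, plus strand: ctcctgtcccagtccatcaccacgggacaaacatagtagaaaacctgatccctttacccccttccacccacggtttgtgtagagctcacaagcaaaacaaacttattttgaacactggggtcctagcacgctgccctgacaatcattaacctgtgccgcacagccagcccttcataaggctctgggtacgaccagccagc
Cdkn1a, chr17:29093569-29093768, plus strand: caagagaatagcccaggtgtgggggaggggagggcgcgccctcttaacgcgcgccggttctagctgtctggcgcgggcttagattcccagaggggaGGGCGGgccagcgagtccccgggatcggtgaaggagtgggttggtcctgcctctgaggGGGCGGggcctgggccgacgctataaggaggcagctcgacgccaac

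In the Fgf21 stretch, TATAAA began 28 bases before the start, CACGTG 50 bases before it and GGGCGG 45 bases before it, the last sharing its first base with the E box, and a further GC box stood on the other strand at 121 bases. Tat held 3 CCAAT matches, at 168, 72 and 40 bases before the start. Cdkn1a held GGGCGG at 104 and 46 bases. Igfbp1 held no exact match to any of the 7 in these 200 bases. Only the exact letters were searched, so variant forms of a site, forkhead sites included, were not looked for. A match says only that the letters are there.

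Across all members, the same motifs were counted from 250 bases before to 50 after a start. Where a gene had a fasted 1 promoter summit, the start nearest to it was used, and otherwise the most upstream start. The groups compared here were thus not read at starts chosen alike. GGGCGG stood in 182 of 272 member promoters (66.9%), beside 43.4% of all 26180 promoters and 69.8% of the 7349 genes with a summit in both fasted livers and in at least 1 refed liver. CCAAT was found in 43.0% of members against 38.0% of all promoters, and CACGTG in 11.4% against 7.72%. TATAAA stood in 7.35% of members and in 13.0% of all promoters. The shares of TGACGTCA were 2.94% and 2.26%, of TGTTTAC 3.31% and 3.06%, and of CAAAGTCCA 0.368% and 0.466%. Thus the members held GGGCGG about as often as the genes marked in both states, and more often than the average gene.

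The CpG content, read at these same starts, followed the same order. The median ratio of observed to expected CpG within 500 bp of the start was 0.706 for the members, 0.790 for the genes marked in both states, 0.261 for the 14879 genes without a summit in any of the 4 livers and 0.520 over all genes. A CpG-poor promoter, with a ratio below 0.4, was found at 36 members (13.2%), against 5.02% of the genes marked in both states and 42.5% of all genes. Hnf4a was among them, with a ratio of 0.292. The CpG-poor members were the more expressed ones in WT refed liver, with a median level of 64.4 RPKM against 4.46 RPKM for the other members. The same held among the genes marked in both states, where the medians were 77.8 and 8.45 RPKM.

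Summit strength was compared as the percentile of the score within each list, since a score (the −log10 of the q-value) grows with depth. The members sat low. Their median percentile was 17.5 in fasted 1 and 41.8 in fasted 2, while the genes marked in both states had medians of 56.8 and 75.7. The scores of the members ran from 1.60 to 39.3 in fasted 1, with a median of 6.60, and from 3.67 to 91.3 in fasted 2, with a median of 25.6. In both fasted lists 179 members lay below the percentile of 50, and 20 lay above it in both. The weakest 10% of fasted 1 summits took in 86 members, and the weakest 10% of fasted 2 took in 5.

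**Figure D1:**
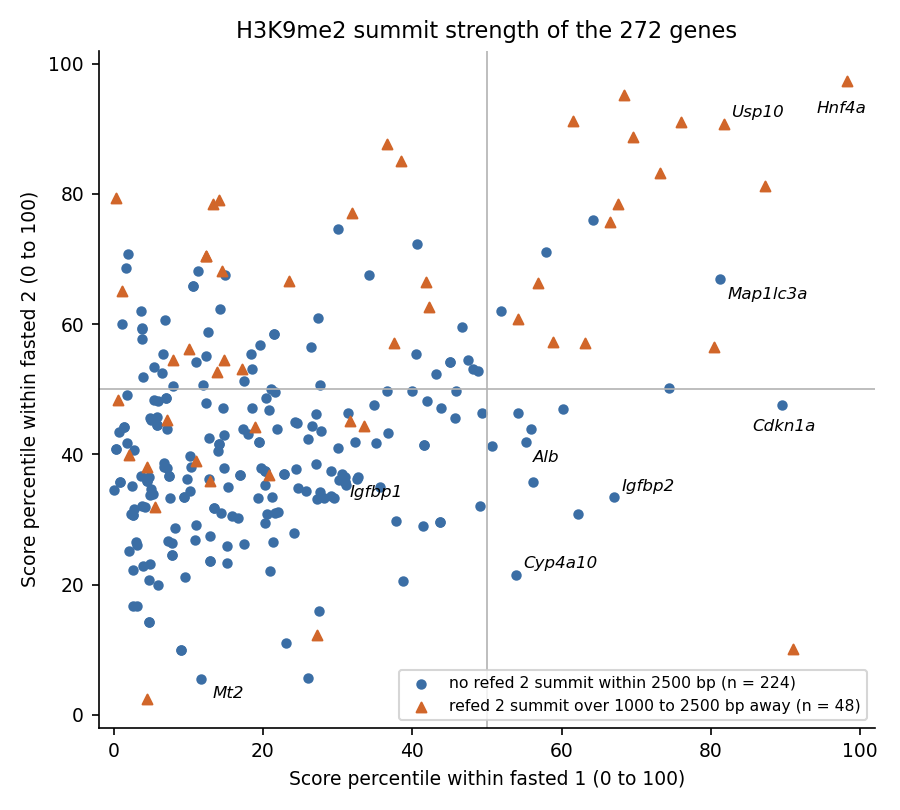
Score percentile of the promoter summit in fasted 1 (x axis, 0 to 100) against fasted 2 (y axis, 0 to 100), with 1 point for each of the 272 genes. Blue circles are the 224 genes with no refed 2 summit within 2500 bp of a start, orange triangles are the 48 with one between 1001 and 2500 bp, and grey lines mark the percentile of 50. Most genes lie to the left, and of the 20 in the upper right 15 are triangles.

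The share of fasted promoters without a refed call fell steeply with strength. Among the 763 genes with the weakest mean fasted percentile, 159 (20.8%) were members. In the next groups of 762 genes the share was 7.22%, 2.76% and 1.84%. In the strongest group it was 0.131%, which was Hnf4a alone. In both fasted lists together 82 genes, Hnf4a included, reached at least its percentiles, and none of the others was a member.

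**Figure D2:**
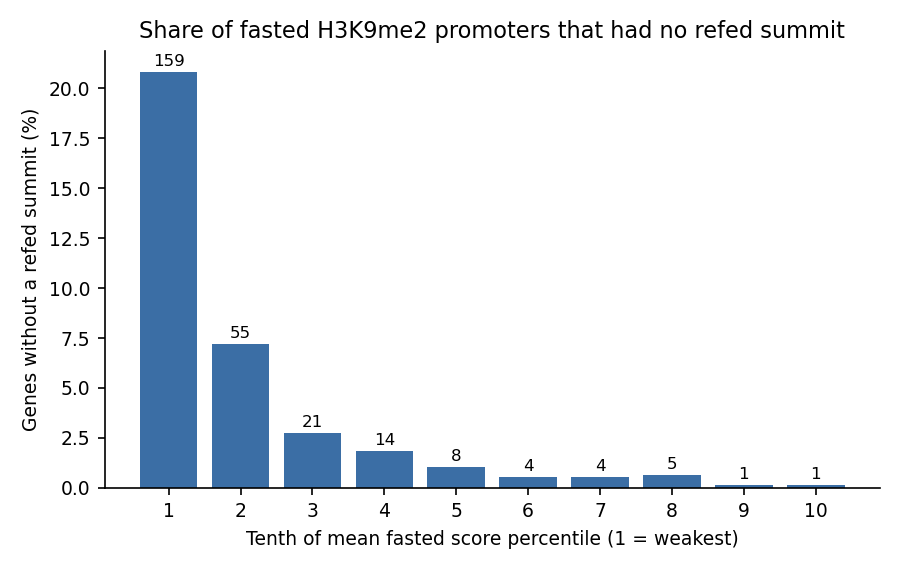
Share of genes with no refed promoter summit (y axis, percent) among the 7621 genes with a promoter summit in both fasted livers, split into 10 groups of nearly equal size by mean fasted score percentile (x axis, 1 is the weakest). Numbers over the bars count the members, and they fall from 159 in the weakest group to 1 in the strongest.

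The limit of 1000 bp decided the strongest members. Of the 10 with the highest mean fasted percentile, 9 had a refed 2 summit between 1001 and 1613 bp from a start, just outside the limit. For Hnf4a, the nuclear receptor that maintains hepatocyte identity, the scores were 39.3 in fasted 1 and 91.3 in fasted 2, at percentiles of 98.2 and 97.4. The nearest refed 2 summit was 1025 bp from a start and 696 bp from the fasted 1 summit, at a percentile of 84.9 within refed 2. Usp10, a deubiquitinase, stood at percentiles of 81.7 and 90.8, and its nearest refed 2 summit, 1173 bp from a start and 456 bp from the fasted 1 summit, was at a percentile of 90.8. In both genes the refed 2 summit was strong within its list. In both it stood farther from the fasted 1 summit than the median of 56.0 bp over the genes marked in both states. The rule favours such a gap. It bars members from a refed summit within 1000 bp of a start, where the genes marked in both states have one.

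Of the 10, 7 others had their nearest refed 2 summit between 1001 and 1613 bp from a start. It lay 290 bp from the fasted 1 summit in Gm16998, 543 bp in Slc25a47 (a mitochondrial carrier), 620 bp in Serpina1b (an alpha-1-antitrypsin) and 744 bp in Lpar6 (a lysophosphatidic acid receptor). In Gsta3 (a glutathione S-transferase) it was 942 bp away, in Ttc39c 1076 bp and in Shb (a signalling adaptor) 1207 bp. Their percentiles within refed 2 ran from 66.2 in Ttc39c to 96.3 in Shb. Map1lc3a was the exception. This gene for LC3A, a protein of the autophagosome membrane, stood at percentiles of 81.2 in fasted 1 and 66.9 in fasted 2, and its nearest refed 2 summit was 39632 bp away.

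In all, 48 members (17.6%) had a refed 2 summit within 2500 bp of a start. In 5 members the refed 2 summit lay within 200 bp of the fasted 1 summit, on the other side of the limit. Of these, Pds5a, 5033430I15Rik and Syde2 are among the genes nearest the limit, at 1008, 1043 and 1039 bp from a start to the refed 2 summit, and L3hypdh and Pde4b are named after their values were seen. Fasted 1 summits of the 48 lay a median of 682.5 bp from the nearest refed 2 summit. The median over the genes marked in both states was 56.0 bp, a difference that the rule favours too. No member had a refed 1 summit within 2500 bp.

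The other 224 members (82.4%) had no refed 2 summit within 2500 bp, and the median distance there was 34040 bp. These were the weaker ones, with a median percentile of 16.8 in fasted 1 and 38.4 in fasted 2, beside 29.4 and 61.7 for the 48. Only 5 of the 224 lay above the percentile of 50 in both fasted lists, beside 15 of the 48. The 5 were Map1lc3a, the phosphatase genes Dusp3 and Dusp28, Egr1 (an immediate early transcription factor) and Hsdl2, with Dusp3, Dusp28 and Hsdl2 named after their values were seen.

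**Figure D3:**
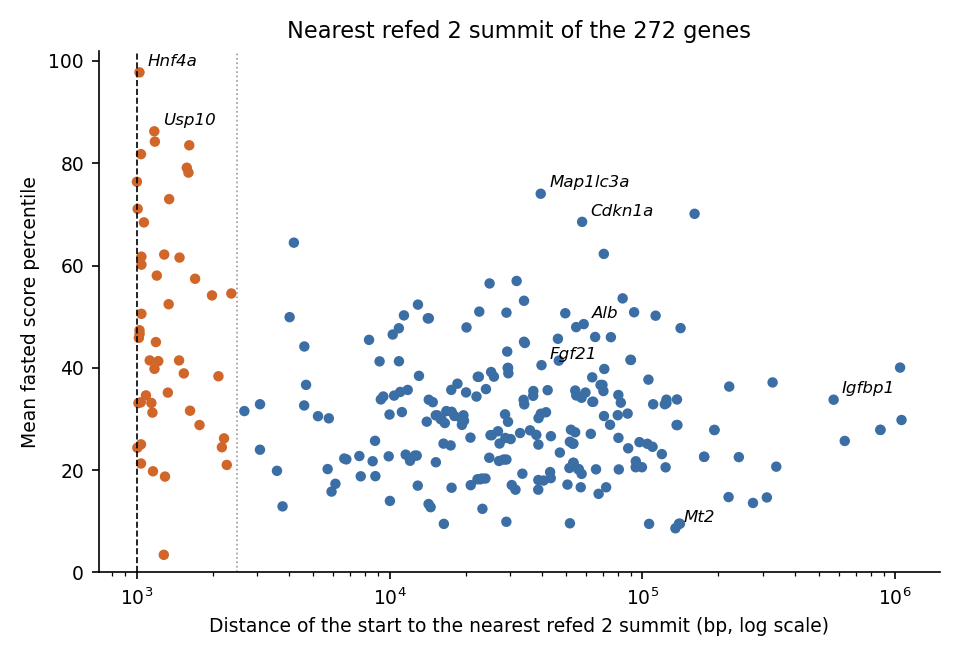
Distance from a start of each of the 272 genes to the nearest refed 2 summit (x axis, bp, log scale) against its mean fasted score percentile (y axis). The dashed line marks the 1000 bp limit and the dotted line 2500 bp, with the 48 genes between them in orange and the other 224 in blue. Hnf4a and Usp10 stand just right of the dashed line, and Map1lc3a is the highest blue point.

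The genes nearest the 1000 bp limit showed how it divided them. On the fasted side, the farther fasted summit was 966 bp away in Gm20753, 975 bp in 5033430I15Rik and 990 bp in Syde2, which were members, and 1012 bp in Stag1, 1018 bp in Paqr9 and 1035 bp in Gm17801, which were not. On the refed side, the nearest refed summit stood at 1001 bp in Serpina1b, 1005 bp in H2bc6 and 1008 bp in Pds5a, which were members, and at 995 bp in Nufip2, 998 bp in Efna1 and 1000 bp in Snord35b, which were not.

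Alb, Cdkn1a, Fgf21, Igfbp1 and Igfbp2 were among the far members. Alb, for serum albumin, had fasted scores of 13.5 and 25.7 (percentiles 55.2 and 41.9), and the nearest refed 2 summit was 58628 bp away. For Cdkn1a, the cell cycle inhibitor p21, the scores were 27.3 and 30.3 (percentiles 89.5 and 47.6), and refed 2 was nearest at 57784 bp. Fgf21, for a hormone that the liver releases on fasting, had scores of 12.1 and 18.2 with refed 2 at 39913 bp. Igfbp1, for a binding protein of insulin-like growth factors that insulin represses, had scores of 8.78 and 21.8, and no refed 2 summit lay closer than 571307 bp. Its neighbour in function Igfbp2 had 16.8 and 19.2, with refed 2 at 112874 bp.

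The metallothionein genes Mt1 and Mt2, whose products bind zinc, lie next to each other on chromosome 8. Mt1 had scores of 11.5 and 32.1 and Mt2 of 5.61 and 4.95. The fasted 1 score of Mt2 lay between the lower quartile (4.69) and the median (6.60) of the members. Its fasted 2 score was far below their lower quartile of 19.2. The nearest refed 2 summits of Mt1 and Mt2 were 141676 and 135205 bp away. Cyp4a14 and Cyp4a10, fatty acid omega-hydroxylases under PPARα, had scores of 14.8 and 29.5, and of 13.2 and 11.4, with refed 2 at 83581 and 105727 bp. Tat, the first enzyme of tyrosine breakdown, was different, since its refed 2 summit was at 1327 bp from the start and 399 bp from the fasted 1 summit. Near-identical gene copies share reads in the Serpina1, Cyp4a and histone families, so values of these genes are uncertain.

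By position, the summit was downstream of the start in 223 members (82.0%) in fasted 1 and in 226 (83.1%) in fasted 2, with medians of 235.5 and 206.5 bp. Over the genes marked in both states the shares were 80.7% and 80.9%. The fasted 1 summit fell in an exon in 107 members, in an intron in 118 and outside the gene in 47. The 2 fasted summits lay a median of 55.5 bp apart, with 233 members at 200 bp or less and 15 at over 500 bp. Since neighbouring genes can share a promoter, the 272 genes had 245 distinct fasted 1 summits, and 54 members shared theirs with another member. By kind, 255 were protein-coding and 14 were lncRNAs, and 20 of 21 chromosomes held at least 1.

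Members were counted in fixed gene lists, to be read beside the 1.04% of all genes that were members, a share that leaves less than 1 gene for each list but the Zfp genes. Of 21 lipogenesis genes none was a member and 15 were marked in both states. Of 12 gluconeogenesis genes only Hnf4a was a member and 8 were marked in both states. None of 16 fatty acid oxidation genes was a member, and 15 were marked in both states. Of 22 insulin and mTOR signalling genes the only member was Mlst8, a subunit of both mTOR complexes, with 20 marked in both states. Of 21 genes for writing, erasing or reading H3K9 methylation the only member was Kdm4b, an H3K9 demethylase, with 17 marked in both states.

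Among 406 genes with a Zfp symbol 7 were members (Zfp53, Zfp688, Zfp712, Zfp771, Zfp821, Zfp960 and Zfp963), and 164 were marked in both states. Of 8 hepatocyte markers Alb and Tat were members, and 4 were marked in both states. No marker of Kupffer, endothelial, stellate, cholangiocyte or lymphoid cells was a member. Most of these had no H3K9me2 promoter summit in any of the 4 livers. This held for 5 of 5 Kupffer, 4 of 5 endothelial, 4 of 5 stellate, 3 of 4 cholangiocyte and 4 of 4 lymphocyte markers.

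ATAC-seq reads open chromatin, and it was not part of the choice. A promoter summit, within 1000 bp of a start, was called at 65 and 33 members in the 2 fasted livers, at 51 and 31 in the 2 refed livers and at 18 and 6 in the JMJD1C-LKO livers. The counts of the fasted and the refed livers overlapped, and both JMJD1C-LKO livers were lower. In both livers of a group, the counts were 27 members in fasted (9.93%), beside 4.36% of all genes, 20 in refed (7.35%), beside 4.78%, and 2 in JMJD1C-LKO (0.735%), beside 0.397%. The genes marked in both states had 10.4%, 11.9% and 0.925%, and the genes without H3K9me2 summits 0.208%, 0.255% and 0.0605%. The JMJD1C-LKO lists were short over the whole genome, with 1450 and 825 summits against 3119 to 7632 in the WT livers, so the low count there cannot be told apart from the length of the lists.

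**Figure D4:**
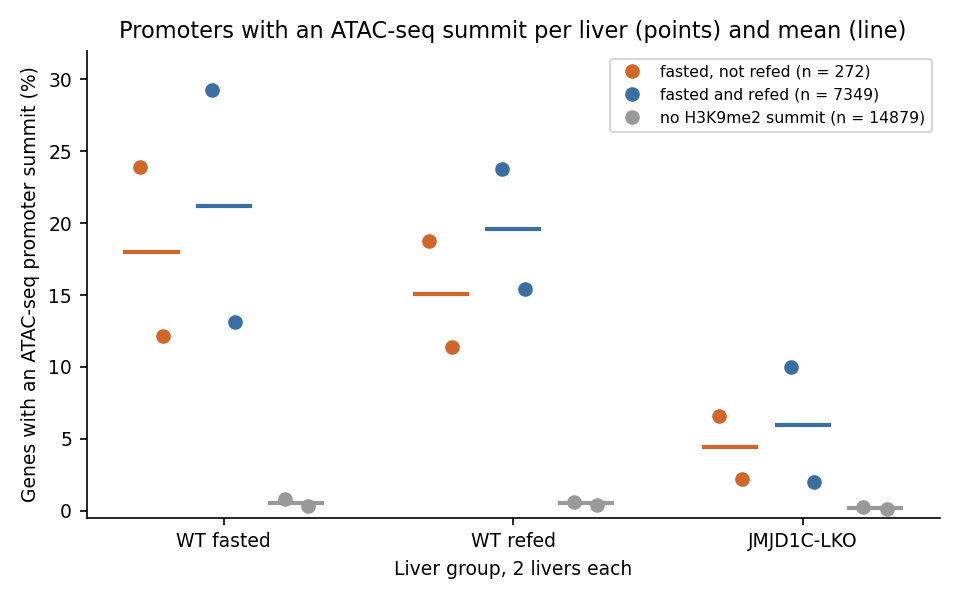
Share of genes with an ATAC-seq summit within 1000 bp of a start (y axis, percent) in each liver of 3 groups (x axis), for the 272 members in orange, the 7349 genes marked in both states in blue and the 14879 genes with no H3K9me2 summit in grey. Points are the 2 livers and lines their mean, and the members stand near the blue points and above the grey ones in each group.

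No ATAC-seq summit in any of the 6 livers was called at 181 members (66.5%), beside 83.2% of all genes. In all 4 WT livers 12 members (4.41%) had one, beside 2.71% of all genes, namely Arhgap17, Abcb8, Gm20753, Phlpp1, L3hypdh, Tmed1, Tbc1d17, Frat2, Aptx, Hspb11, Lrrc42 and Ttc30a1. Both fasted and neither refed livers had a summit at 5 members, beside 0.508% of all genes, and both refed and neither fasted at 1 member, beside 0.581%. The 5 were Alb, Cks1b (a cofactor of cyclin-dependent kinases), the histone gene H2bc6, and Tmem38a and Smim7, which share 1 promoter. The 1 was Kdm4b. The summit at Alb lay 31 bp upstream of the start in fasted 1 and 222 bp upstream in fasted 2, at percentiles of 76.6 and 36.5 within its list. In JMJD1C-LKO 1 it lay 104 bp upstream, and the Albumin-Cre transgene of these mice carries albumin promoter sequence too.

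At Kdm4b the 2 refed ATAC-seq summits lay 329 and 342 bp upstream of the start, at percentiles of 76.6 and 65.1. Both JMJD1C-LKO livers had a summit at H2bc4 and H2ac6, a pair of histone genes with one promoter. Mlst8 had one in both fasted livers and in refed 2. Of the 10 strongest members 4 had an ATAC-seq summit in at least 1 liver, beside 33.5% of all members. Hnf4a, Gsta3 and Slc25a47 had 1 in fasted 1 only, and Shb had 1 in fasted 1 and 1 in refed 1.

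RNA-seq was of refed liver, the state in which the members had no summit. Of 272 members 264 were in the table. Expression was computed as RPKM, counts scaled to transcript length and to library size, and is the mean of the 2 WT libraries. The median was 5.34 RPKM over 263 members, 8.95 over the genes marked in both states, 0.212 over the genes without a summit and 2.91 over the whole table. At least 1 RPKM was reached by 226 members (85.9%), and at least 100 RPKM by 20 (7.61%). The 48 members with a refed 2 summit within 2500 bp had a median of 13.4 RPKM and held 11 of these 20, while the other 224 had a median of 4.70 RPKM.

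At the top of the range, Alb stood at 42120 and 41590 RPKM in the 2 WT libraries and Serpina1b at 4014 and 4054 RPKM. Cyp4a14 stood at 1561 and 1842 RPKM, and its neighbour Cyp4a10 at 1423 and 1528 RPKM, close below without overlap. Igfbp2 had 816 and 955 RPKM and Gsta3 788 and 814 RPKM, which came close without overlapping either. Below them, Gjb1 (connexin 32, the main gap junction protein of hepatocytes) had 339 and 373 RPKM and Slc25a47 had 320 and 370 RPKM. Khk, which starts the use of fructose, had 235 and 238 RPKM, within the range of Tat at 251 and 221 RPKM. Hnf4a, at 164 and 178 RPKM, came later.

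Levels were next compared between refed JMJD1C-LKO and refed WT liver. Jmjd1c itself, the deleted gene, measured 2.59 and 2.70 RPKM in WT and 2.25 and 2.42 RPKM in the libraries labelled JMJD1C-LKO, a log2 fold change of −0.14 ± 0.08 (SE) with an edgeR adjusted p of 0.233. Counts over the whole gene do not resolve the deleted part, and the genotype of these libraries rests on their labels. Among 5 Kupffer cell markers all 5 rose, and their summed level was 90.5 and 94.0 RPKM in WT and 168.5 and 255.5 RPKM in JMJD1C-LKO. The 5 endothelial markers summed to 32.3 and 33.0 against 40.2 and 54.3 RPKM, and 4 lymphocyte markers to 3.15 and 2.63 against 4.71 and 6.84 RPKM. The 5 stellate markers summed to 68.4 and 69.9 against 71.2 and 87.1 RPKM. The 4 cholangiocyte markers summed to 3.44 and 3.47 against 2.45 and 3.275 RPKM. The 8 hepatocyte markers summed to 65640 and 64590 in WT against 62870 and 60160 RPKM in JMJD1C-LKO. Alb made up most of that sum, while Tat and Cps1 rose. The part of these shifts in the changes below was not tested. In bulk RNA, fewer cells of a type and less RNA per cell cannot be told apart.

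By edgeR's quasi-likelihood test with adjustment over 14162 genes, 47 of 262 tested members (17.9%) rose in JMJD1C-LKO, beside 14.6% of all genes tested, and 33 (12.6%) fell, beside 13.4%. Together this was 80 members, or 30.5%, beside 27.9%. The members' median log2 fold change was 0.05 and that of all genes 0.01. With a change of over 1 on the log2 scale, 12 members rose (4.58%, beside 5.06% of all genes) and 8 fell (3.05%, beside 0.932%). The shares of changed members were thus near those of all genes, other than for the 8 with a large decrease. They differed from those of the genes marked in both states, of which 10.35% rose and 18.64% fell. Of the genes without a summit 23.25% rose and 4.15% fell. By over 1 on the log2 scale, 1.09% of the genes marked in both states rose and 0.258% fell. Of the genes without a summit 14.76% rose and 2.03% fell by that much. These differences were not tested. Leaving out WT replicate 1 or 2 took the counts to 19 or 17 that rose and 13 or 10 that fell.

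**Figure D5:**
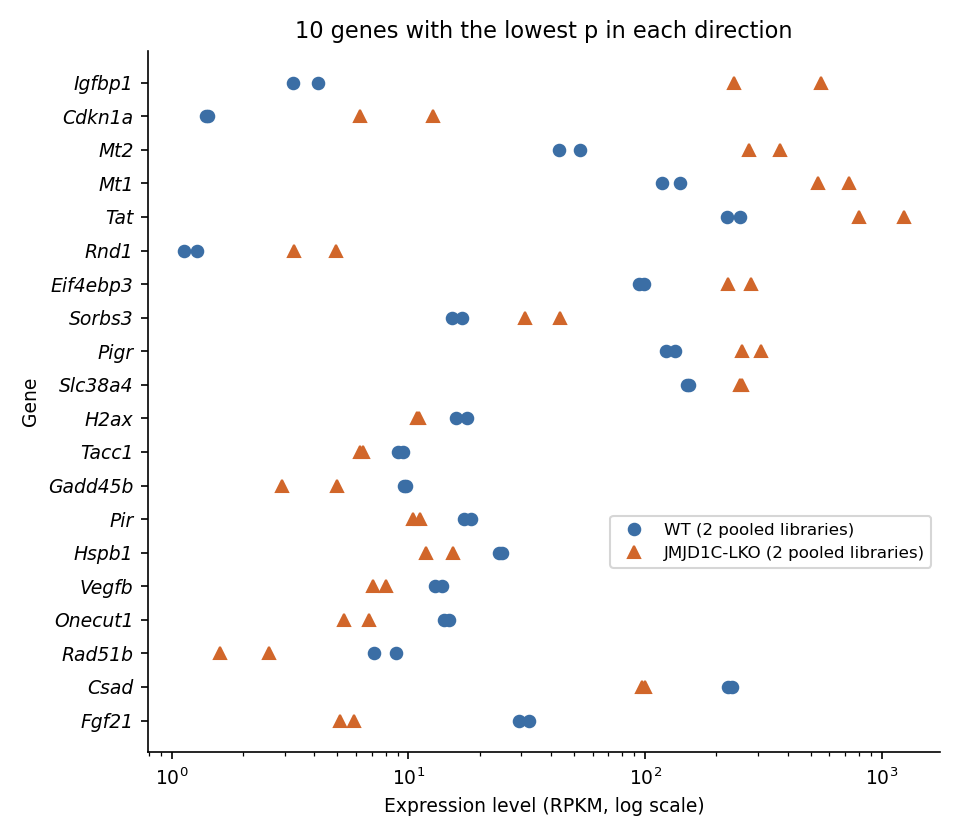
Expression (x axis, RPKM, log scale) of the 20 members with the lowest p, 10 that rose in JMJD1C-LKO and 10 that fell (y axis). Blue circles are the 2 WT and orange triangles the 2 JMJD1C-LKO libraries, each of pooled RNA. In each gene the 2 groups do not overlap, which the choice by lowest p favours.

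Among secreted factors and their binding proteins, Igfbp1 rose most. It measured 3.27 and 4.15 RPKM in WT and 237 and 553 RPKM in JMJD1C-LKO, a log2 fold change of 6.76 ± 0.37 (SE) with an edgeR adjusted p of 1.11e-05. The JMJD1C-LKO libraries were both far above WT and differed from each other by more than the WT libraries did. Fgf21 fell most, from 32.2 and 29.3 RPKM in WT to 5.12 and 5.88 RPKM in JMJD1C-LKO, a log2 change of −2.45 ± 0.11 (SE) with an edgeR adjusted p of 4.79e-06. Igfbp1 and Fgf21 thus moved in opposite directions in the liver of refed mice. Vegfb, a growth factor of the VEGF family, fell by 0.78 on the log2 scale, and Igfbp2, at 778 and 865 RPKM in JMJD1C-LKO, did not pass the test, with a log2 fold change of −0.05.

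Of the metal-binding proteins, Mt2 measured 53.2 and 43.4 RPKM in WT and 275 and 371 RPKM in JMJD1C-LKO, a log2 fold change of 2.77 ± 0.14 (SE) with an edgeR adjusted p of 1.01e-05. Its neighbour Mt1 measured 141 and 118 RPKM in WT against 536 and 729 RPKM, a log2 fold change of 2.32 ± 0.13 (SE). Both genes rose in both libraries. These 2 short genes are alike in sequence, so reads can be shared between them.

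Tat, the tyrosine aminotransferase, measured 251 and 221 RPKM in WT and 805 and 1239 RPKM in JMJD1C-LKO, a log2 fold change of 2.15 ± 0.16 (SE) with an edgeR adjusted p of 5.68e-05. Slc38a4, an amino acid transporter, went from 150 and 154 RPKM to 251 and 256 RPKM, a log2 fold change of 0.78 ± 0.08 (SE). Csad, an enzyme of taurine synthesis, fell from 224 and 233 RPKM to 97.4 and 99.7 RPKM, a log2 change of −1.17 ± 0.08 (SE) with an edgeR adjusted p of 3.91e-05. All 3 genes have a refed 2 summit just outside the limit of a start, at 1327 bp for Tat, 1284 bp for Slc38a4 and 1159 bp for Csad, although at Csad, which has several starts, it was 15219 bp from the fasted 1 summit. Pigr, the receptor that carries IgA into bile, rose from 122.2 and 133.3 RPKM to 257 and 309 RPKM, a log2 fold change of 1.18 ± 0.10 (SE).

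Among regulators of growth and signalling, Cdkn1a measured 1.40 and 1.42 RPKM in WT and 6.23 and 12.7 RPKM in JMJD1C-LKO, a log2 fold change of 2.77 ± 0.28 (SE) with an edgeR adjusted p of 0.000213. Eif4ebp3, which holds back cap-dependent translation, rose from 94.5 and 99.3 RPKM to 224 and 280 RPKM, a log2 fold change of 1.41 ± 0.10 (SE). Rnd1 rose by 1.81 ± 0.20 (SE) on the log2 scale, and Sorbs3, which encodes the adhesion protein vinexin, by 1.28 ± 0.12 (SE). Egr1 measured 1.56 and 1.40 RPKM in WT and 1.66 and 3.63 RPKM in JMJD1C-LKO, so that only 1 library was far above WT. Its edgeR adjusted p of 0.0467 became 0.341 at the most in the alternative fits.

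Of factors in the nucleus, Onecut1 (HNF6, a transcription factor of liver and bile duct) fell from 14.2 and 14.9 RPKM to 6.83 and 5.32 RPKM, a log2 change of −1.21 ± 0.13 (SE) with an edgeR adjusted p of 0.000314. For Onecut1 and Rad51b, too, refed 2 had a summit near, at 1771 and 1293 bp from a start. Rad51b, of homologous recombination, fell by 1.91 ± 0.19 (SE) on the log2 scale, Gadd45b, a stress gene, by 1.25 ± 0.20 (SE), and H2ax, the histone variant of DNA damage sites, by 0.57 ± 0.10 (SE). Without WT replicate 1 the edgeR adjusted p of H2ax was 0.0542, and the other 19 of these 20 genes passed in each of 8 alternatives. Hspb1, a small heat shock protein, fell by 0.81 ± 0.11 (SE), Pir by 0.67 ± 0.10 (SE) and Tacc1 by 0.49 ± 0.08 (SE).

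Of the 10 strongest members 3 passed the test, where 30.5% of all tested members and 27.9% of all genes tested did. Hnf4a measured 152 and 153 RPKM in JMJD1C-LKO, a log2 fold change of −0.12 ± 0.08 (SE) with an edgeR adjusted p of 0.307. Map1lc3a had a log2 fold change of 0.07 and Gsta3 of −0.27, and neither passed the test. The 3 that passed were Ttc39c with a log2 fold change of 0.46, Usp10 with −0.39 and Lpar6 with −0.38. Without WT replicate 1 or 2, the edgeR adjusted p was 0.115 or 0.160 for Ttc39c, 0.0921 or 0.169 for Usp10 and 0.303 or 0.0839 for Lpar6. Without JMJD1C-LKO replicate 2 it was 0.0579 for Usp10 and 0.0527 for Lpar6, and by DESeq2 the adjusted p of Lpar6 was 0.0588. Of the 10 most expressed members Tat passed the test, as given above, and the others did not. Among these, Alb had −0.16, Cyp4a14 −0.30, Cyp4a10 −0.02, Gjb1 0.00 and Khk −0.07. Of the members in the fixed lists, Mlst8 had a log2 fold change of −0.41 and Kdm4b of −0.03, both short of the threshold.

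The 8 members without a row in the RNA-seq table were 5033430I15Rik, Rnft2, Gm20753, Mir1956, Rnu7, Gm31510, Nek11 and BC049987, of which those outside the naming rule are named because they are missing, and 2 more were in the table without passing the filter on low counts. Of all genes tested, 14.6% rose and 13.4% fell. By distance to refed 2, 7 of the 45 tested members with a summit within 2500 bp rose (15.6%) and 12 fell (26.7%), and of the 217 others 40 rose (18.4%) and 21 fell (9.68%). The difference between these groups of members was not tested. Among the CpG-poor members 7 of 35 tested rose (20%) and 5 fell (14.3%), and among the others 40 of 227 rose (17.6%) and 28 fell (12.3%).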

How the data were processed

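The authors aligned H3K9me2 ChIP-seq reads with Bowtie2 (unique reads) and ATAC-seq reads with BWA-backtrack, called peaks per liver with MACS2 2.1.1 at a q-value of 0.05 with at least 2.5-fold (ChIP-seq, against input) or 2.0-fold (ATAC-seq) enrichment, and deposited summits with a score, the −log10 of the q-value. For RNA-seq the authors deposited expected counts per RefSeq transcript (51265128 to 54400509 per library). A second deposited table of the authors' own comparison (fold changes and p-values) was not used.

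Summits and starts of curated transcripts were matched on GRCm38.p6, and where a promoter held several summits the strongest was taken. Of 24994 transcripts 24695 matched by accession. Each gene's counts were added up and rounded to whole numbers for the tests. RPKM was computed from the unrounded count and RefSeq length of each transcript, then added up per gene. edgeR 4.0.16 (R 4.3.3) used TMM, filterByExpr and the quasi-likelihood F test with Benjamini-Hochberg adjustment at 0.05, and was tested on simulated data. DESeq2 1.42.0 was an alternative. Nothing in the labels says that the samples of a group came from separate litters or days, so p-values measure the spread between 2 pooled libraries.

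Genes were named when among the 10 strongest in fasted ChIP-seq, the 10 most expressed, at most 10 per direction past the RNA-seq threshold by p, with ATAC-seq summits in both livers of a group, in a fixed list, or nearest the 1000 bp limit. The members and lists were chosen with earlier results of these data known.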

Additional observations from a re-analysis of the deposited data

How the results depend on the processing

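The number of genes depended on the limits. It was 475 with a window of 500 bp and 241 with 2500 bp, of which 217 and 224 were among the 272. Taking the 1297 strongest summits of each list gave 297 genes, of which only 1 was among the 272. Leaving out 1 ChIP-seq liver gave 273 to 7612 genes, the highest without refed 2, and 2048 without fasted 1. Asking for a score of at least 5 in all 4 lists gave 288 genes, and in the fasted lists only gave 190. Fasted 1 against refed 2 alone gave 282, and a limit of 2500 bp for refed only gave 224, both chosen after seeing the data. For ATAC-seq in both livers, a score of at least 5 left 13 fasted and 0 JMJD1C-LKO members, and the 825 strongest summits of each list left 2 fasted, 6 refed and 0 JMJD1C-LKO members. Leaving out 1 liver gave 33 to 65 fasted, 31 to 51 refed and 6 to 18 JMJD1C-LKO members. For RNA-seq, leaving out 1 library gave 672 to 2555 genes up and 417 to 2548 down, and 17 to 56 members up and 10 to 46 down, the fewest without WT replicate 2, where the lone WT library was taken to vary like the other group. The median level was 2.67 on the log2(RPKM + 1) scale, 2.44 with a pseudocount of 0.1 and 3.92 as CPM, and 2.62 to 2.64 from a single library. Replicate numbers did not pair the RNA-seq libraries (correlation of deviations −0.0045), and the fit with the replicate block called 2217 genes up and 1998 down, and 49 and 39 members. The cause of these shifts was not tested. Of the alternative values of single genes, 213 kept their side of the threshold, 16 lost it and 3 gained it, and only Igfbp2, which passed the test in no fit, changed sign (0.055 without WT replicate 2).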
